A study of Mus musculus with 4 samples.

Results

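The genes that encode the subunits of Polycomb repressive complex 2 (PRC2) and the histone lysine methyltransferases were examined in mouse blastocysts cultured with the metabolite α-KG (α-ketoglutarate) or with 2-HG (2-hydroxyglutarate), which resembles it. The group holds 35 of the 53715 genes in the table and was chosen by gene name. All 35 names were matched, 3 of them under an older symbol: Kmt5a is listed as Setd8, Kmt5b as Suv420h1 and Kmt5c as Suv420h2.

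RNA was sequenced from 4 libraries of C57BL/6 embryos, with 1 library in each group. The groups were embryos given α-KG at 0.15 mM, embryos given 2-HG at 0.3 mM, the negative control of the 2-HG pair and the negative control of the α-KG pair. Zygotes came from the oviduct, were grown in KSOM, a culture medium for embryos, and met the compounds from the pronuclear stage onward, and the labels name no allele or other agent in any group. Triton X-100 was used on the embryos, and 1 ng of cDNA, amplified beforehand, went into library construction. The number of embryos in a library, the enantiomer of 2-HG and the strandedness of the libraries are not given in the sources used here. No group has a replicate, so no test was possible and every difference below is a difference between 2 libraries.

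Histone lysine methyltransferases move a methyl group from S-adenosylmethionine to a lysine of a histone tail, nearly all of them through a SET domain. PRC2 places methyl groups on the H3K27 residue of histones and keeps developmental genes silent, and mouse embryos without Ezh2, Eed or Suz12 fail soon after implantation. The JmjC demethylases, which take these marks off again, use α-KG as a co-substrate, and 2-HG can compete with it. The methyltransferases themselves use neither compound.

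Values are TPM, an abundance corrected for gene length and scaled to a common total per library. Levels of different genes are set side by side on that basis only, and any bias from the amplification of the cDNA was not tested. A difference is given as the difference of log2(TPM + 1), which understates the change of low genes. A gene passed the size rule when either of the libraries compared had 5 TPM or more and the libraries differed by at least 2-fold on that scale, a log2 difference of 1.00 or more. The depth of the libraries is unknown from TPM, and fewer cells of a type cannot be told apart from less RNA per cell.

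The libraries differed in the sex-linked genes. Xist, transcribed from the inactive X chromosome, was at 62.6 TPM with α-KG and 1.04 TPM in the α-KG control, and at 11.2 TPM with 2-HG and 29.7 TPM in the 2-HG control. The summed protein-coding genes of the Y chromosome were at 145 TPM with α-KG and 254 TPM in the α-KG control, and at 229.6 TPM with 2-HG and 211 TPM in the 2-HG control. Every library therefore held Y-linked RNA, in unequal amounts relative to Xist. Blastocyst identity was checked with marker lists. The 10 trophectoderm genes summed to between 6096 and 7289 TPM and the 5 primitive endoderm genes to between 169 and 218 TPM. Krt8 and Krt18 made up most of the trophectoderm sum, at 2523 and 4339 TPM with 2-HG. With α-KG, 8 of 10 trophectoderm genes were above the α-KG control, with a median log2 difference of 0.15 beside 0.05 for all genes. With 2-HG, 3 of the 9 tested were above the 2-HG control, at a median of -0.33 beside -0.12. The 7 epiblast genes summed to 229 TPM with α-KG and 249 TPM in the α-KG control, and to 169 TPM with 2-HG and 193 TPM in the 2-HG control. Of the 6 epiblast genes tested between the controls, all were lower in the 2-HG control. Their median log2 difference was -0.51, beside 0.09 for all genes. Nanog at -0.08 and Pou5f1 at -0.13 differed least, and Sox2 passed the size rule at -1.55. Of the trophectoderm genes, Elf5 at -2.17 and Gata2 at 1.71 also passed it between the controls. Within the pairs, Elf5 passed it with α-KG at -1.85 and Gata2 with 2-HG at -1.90. The Sox2 and Elf5 calls entered through the α-KG control alone, and the Gata2 calls through the 2-HG control alone. Gata6 made up most of the primitive endoderm sum, while Gata4, Sox17 and Sox7 were at 1.67 TPM or less. RNA of other possible sources was low: the 7 cumulus cell genes summed to at most 0.105 TPM with 5 of them listed at 0 in all 4 libraries, the 5 oviduct genes to at most 1.77 TPM, the 5 blood genes to at most 2.52 TPM and the 6 oocyte genes to at most 6.77 TPM. The 6 genes typical of 2-cell embryos summed to 6.58 TPM with α-KG and 0.273 TPM in the α-KG control, and to 0.0141 TPM with 2-HG and 0.115 TPM in the 2-HG control. The part of sex composition, lineage composition or stage in any difference below was not tested.

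The methyltransferase genes were broadly expressed. 30 of the 35 reached 5 TPM in some library, and all 35 together summed to 1077 TPM with α-KG and 937 TPM in the α-KG control, and to 957 TPM with 2-HG and 927 TPM in the 2-HG control. Eed had the highest mean level, followed by Ezh2 and Suz12, at 113, 103 and 88.5 TPM over the 4 libraries, so 3 PRC2 genes led the list. The 5 genes under 5 TPM in every library, Kmt2a, Kmt2d, Setd1a, Setd1b and Setd7, all belong to the enzymes of H3K4. Nsd2 and Smyd4 reached 5 TPM in only 1 library of the α-KG pair, and Kmt5c in only 1 of the 2-HG pair, so these entered the comparison through their higher library.

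**Figure D1:**
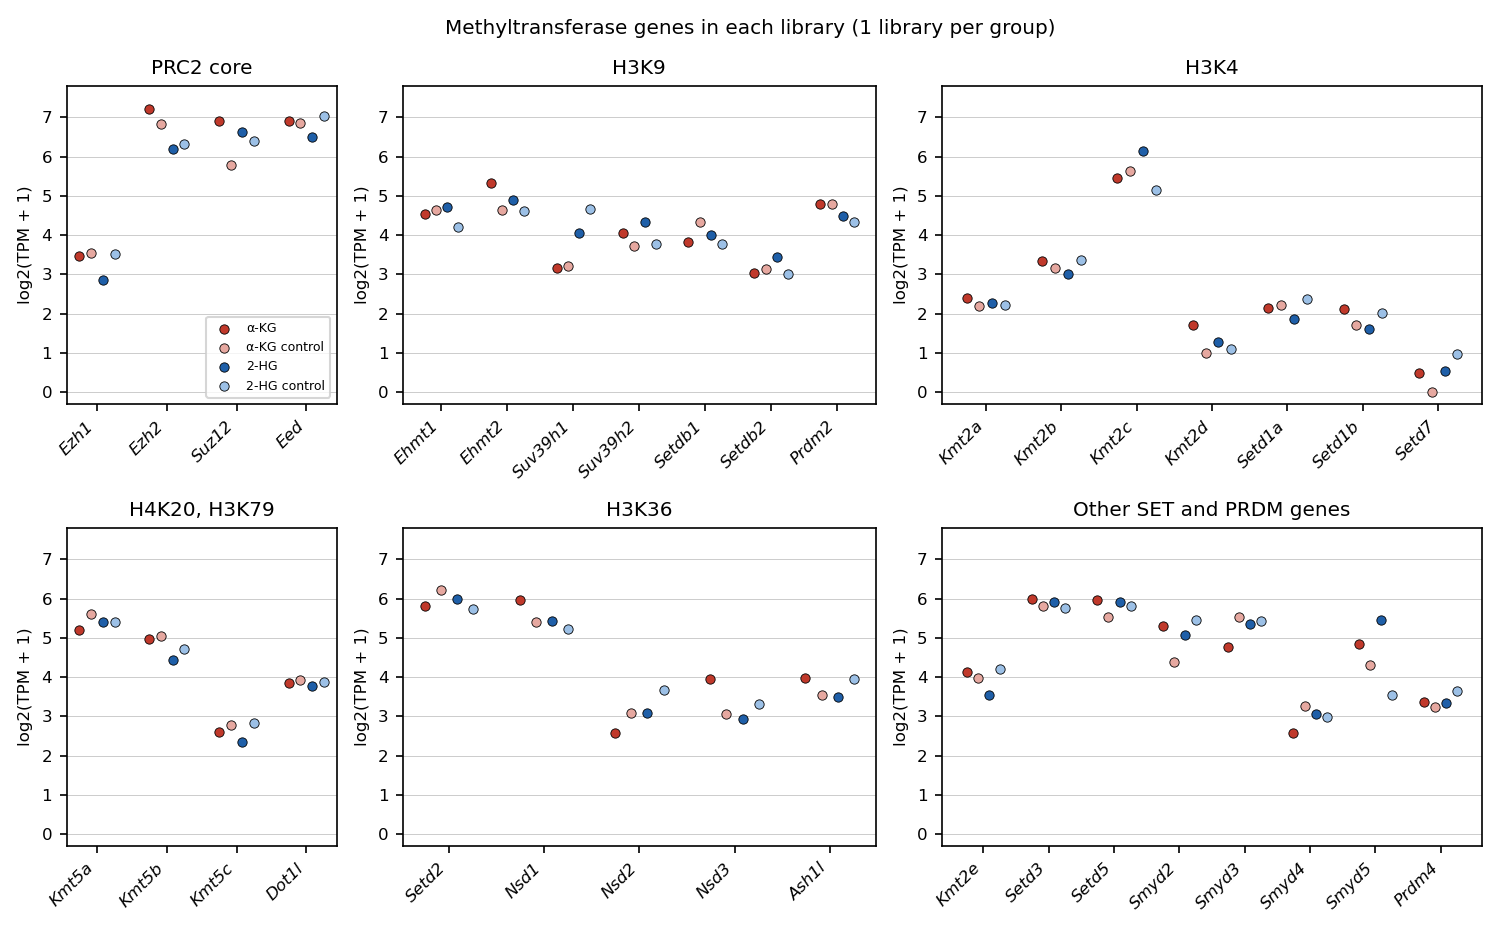
Level of each of the 35 genes as log2(TPM + 1), on the vertical axis, in panels by the residue or role of the enzyme, with 1 point per library. Eed, Ezh2 and Suz12 stand highest, and 5 of the genes of H3K4 methylation stay under 5 TPM in every library.

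Few of the genes passed the size rule. With α-KG, 1 of the 30 genes tested (3.33%) differed by 2-fold or more from the α-KG control, against 7.31% of all 9878 genes tested in that comparison. The gene was Suz12, which was higher with α-KG. With 2-HG, 2 of 30 (6.67%) did so against the 2-HG control, beside 8.01% of 9834 genes, and both Smyd5 and Kmt2c were higher with 2-HG. Between the controls, for which the labels give no difference in handling, 2 of 30 (6.67%) passed, beside 8.86% of 9927 genes, with Suv39h1 and Smyd2 both higher in the 2-HG control. With a looser rule of 1.5-fold, chosen after the data were seen, 6 of 30 passed with α-KG, 6 of 30 with 2-HG and 4 of 30 between the controls, beside 19.3%, 22.8% and 24.5% of all genes in the same order. The 2-fold shares lie under those of all genes, so the counts set the methyltransferase genes apart in none of the comparisons. The comparison of the controls shares 1 library with each of the others, whereas the α-KG and 2-HG comparisons share none.

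The genes also divided evenly in direction. With α-KG, 15 of 30 genes were above the α-KG control and 15 below it, with a median log2 difference of 0.02 beside 0.05 for all genes. With 2-HG, again 15 were above the 2-HG control and 15 below it, with a median of -0.04 beside -0.12 for all genes. The median size of the difference, without its sign, was 0.37 with α-KG, 0.33 with 2-HG and 0.28 between the controls, beside 0.26, 0.30 and 0.32 for all genes in the same order. Of the 30 genes, 7 were above the own control with both compounds, 7 were below it with both, 8 were above it with α-KG and below it with 2-HG, and 8 were below it with α-KG and above it with 2-HG.

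**Figure D2:**
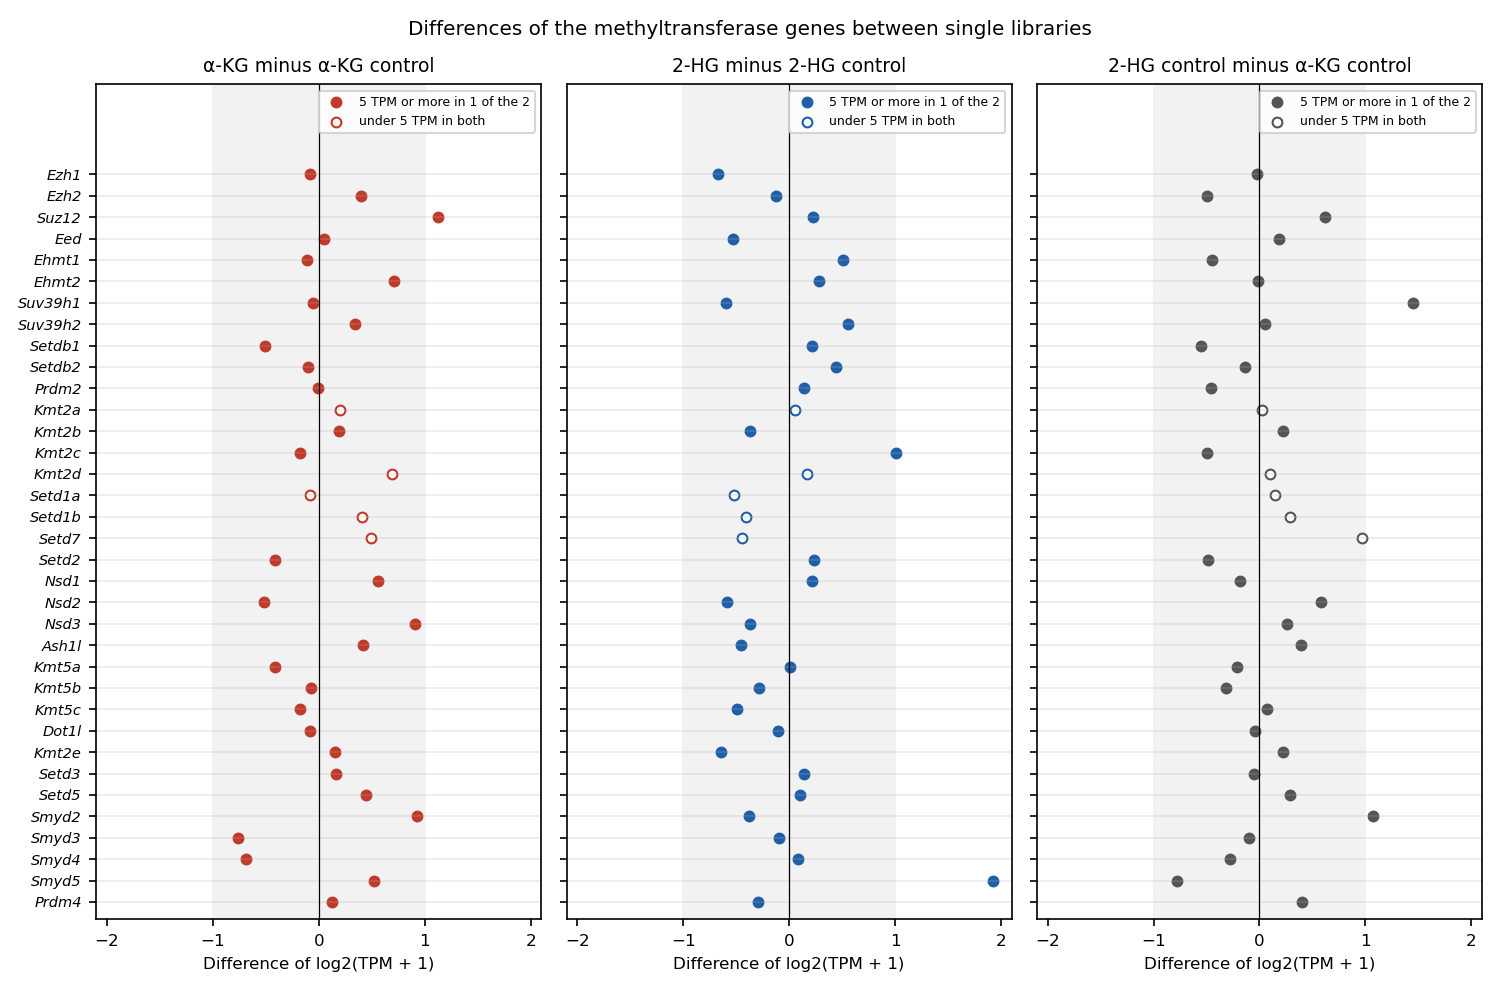
Difference of log2(TPM + 1), on the horizontal axis, for each of the 35 genes, for α-KG minus the α-KG control, 2-HG minus the 2-HG control and the 2-HG control minus the α-KG control, with filled points for genes tested, open points for genes under 5 TPM in both libraries and grey shading inside the size rule. Suz12 lies beyond the shading with α-KG at 1.13, Smyd5 and Kmt2c with 2-HG at 1.92 and 1.01, and Suv39h1 and Smyd2 between the controls at 1.45 and 1.07.

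The promoters of the 5 genes that passed the rule in any comparison are shown here, with that of Ezh2, the catalytic partner of Suz12. RefSeq promoters of GRCm38.p6, from 250 bases before to 50 bases after a start, were matched for 26 of the 35 genes, taking the RefSeq start nearest to the start of the gene in GENCODE. The RefSeq start lay within 100 bases of that start for 22 of the 26, and 156 bases away for Prdm4, 311 for Ezh2, 719 for Setd1a and 27570 for Setd5, so the Setd5 window is not at the annotated start of the gene. Capitals mark the GC box GGGCGG, the CCAAT box CCAAT, the YY1 letters AAGATGGCG and the E2F letters TTTGGCGC, TTTCCCGC, TTTCGCGC or TTTGCCGC, on either strand. The windows are chr11:79992856-79993155 on the plus strand for Suz12, chr6:47594981-47595280 on the minus strand for Ezh2, chr6:85431726-85432025 on the plus strand for Smyd5, chr5:25498734-25499033 on the minus strand for Kmt2c, chrX:8074711-8075010 on the minus strand for Suv39h1 and chr1:189922242-189922541 on the minus strand for Smyd2.
Suz12: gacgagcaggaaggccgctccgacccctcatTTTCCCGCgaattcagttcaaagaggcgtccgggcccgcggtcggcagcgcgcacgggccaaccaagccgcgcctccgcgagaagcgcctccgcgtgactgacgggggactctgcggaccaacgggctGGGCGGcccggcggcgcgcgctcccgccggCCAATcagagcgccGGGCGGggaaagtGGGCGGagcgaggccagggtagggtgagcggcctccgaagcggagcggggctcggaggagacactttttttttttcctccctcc
Ezh2: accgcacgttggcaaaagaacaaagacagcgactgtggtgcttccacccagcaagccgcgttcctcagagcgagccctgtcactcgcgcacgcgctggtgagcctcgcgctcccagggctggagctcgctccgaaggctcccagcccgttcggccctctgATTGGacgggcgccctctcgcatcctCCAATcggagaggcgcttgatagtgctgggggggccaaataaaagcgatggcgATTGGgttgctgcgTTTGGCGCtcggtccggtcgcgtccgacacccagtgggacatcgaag
Smyd5: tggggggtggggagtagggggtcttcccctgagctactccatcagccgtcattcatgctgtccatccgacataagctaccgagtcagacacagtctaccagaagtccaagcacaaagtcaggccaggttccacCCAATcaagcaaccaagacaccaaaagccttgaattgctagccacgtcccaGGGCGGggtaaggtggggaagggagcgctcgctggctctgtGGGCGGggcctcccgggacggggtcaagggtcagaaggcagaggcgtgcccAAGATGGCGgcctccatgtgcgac
Kmt2c: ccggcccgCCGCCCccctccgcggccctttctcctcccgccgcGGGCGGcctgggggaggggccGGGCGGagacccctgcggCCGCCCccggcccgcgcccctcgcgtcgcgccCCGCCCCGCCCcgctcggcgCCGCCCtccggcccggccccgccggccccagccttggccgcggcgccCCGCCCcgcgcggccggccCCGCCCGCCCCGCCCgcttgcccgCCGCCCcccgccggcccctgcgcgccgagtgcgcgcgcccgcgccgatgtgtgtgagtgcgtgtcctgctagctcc
Suv39h1: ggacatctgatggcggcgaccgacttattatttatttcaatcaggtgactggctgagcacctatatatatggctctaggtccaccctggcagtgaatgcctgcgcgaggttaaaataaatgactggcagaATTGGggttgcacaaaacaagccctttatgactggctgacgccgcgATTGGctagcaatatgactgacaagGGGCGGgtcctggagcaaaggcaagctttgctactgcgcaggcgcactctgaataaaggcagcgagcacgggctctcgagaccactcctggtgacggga
Smyd2: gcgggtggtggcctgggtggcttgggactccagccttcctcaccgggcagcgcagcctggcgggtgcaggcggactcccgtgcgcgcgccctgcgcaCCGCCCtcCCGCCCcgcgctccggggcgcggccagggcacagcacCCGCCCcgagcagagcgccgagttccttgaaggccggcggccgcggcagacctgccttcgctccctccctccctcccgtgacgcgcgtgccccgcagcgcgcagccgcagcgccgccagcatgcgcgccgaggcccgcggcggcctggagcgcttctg

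The Suz12 window holds 41 CpG, 1 E2F match, 1 CCAAT box and 3 GC boxes. The Ezh2 window holds 31 CpG, 1 E2F match and 3 CCAAT boxes and has no GC box. Kmt2c has the most CpG of the 26 promoters, 56, with 12 GC boxes, and Smyd2 has 43 with 3 GC boxes. Smyd5 and Suv39h1 are poorer in CpG, with 13 and 15, and Smyd5 carries a YY1 match. The 26 promoters had a median of 30 CpG and 67.3% G and C, beside 21 CpG and 60.7% for the 8772 promoters of genes that reached 5 TPM in a library and 7 CpG and 52.7% for all 32817 promoters. The lowest count was the 1 CpG of the distant Setd5 window. The 26 hold 1 start per gene, whereas the wider sets hold every distinct RefSeq window of a gene. Kmt2a, Kmt2d, Setd1a and Setd7, among the 26, were under 5 TPM in every library. The sets are thus unlike in make-up, for the motif shares below as well.

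E2F factors drive genes of DNA replication, and their letters were found in 3 of the 26 promoters (11.5%), those of Suz12, Ezh2 and Kmt5c, beside 4.23% of the promoters of expressed genes and 2.26% of all promoters. The YY1 letters were also found in 3 (11.5%), those of Smyd5, Suv39h2 and Dot1l, beside 3.63% of expressed and 1.40% of all promoters. GC boxes were found in 18 of 26 (69.2%) and CCAAT boxes in 12 (46.2%), beside 63.9% and 38.5% of expressed promoters and 35.6% and 37.4% of all promoters. The TATA letters TATAAA and the ETS letters CCGGAAGT were in none of the 26, beside 6.78% and 9.48% of expressed and 13.6% and 3.89% of all promoters. The CRE letters TGACGTCA were in 1, that of Suv39h2 (3.85%), beside 3.43% of expressed and 1.79% of all promoters. Matches to different motifs never overlapped in these 26 promoters, while 7 pairs of matches to the same motif did. A match is a description of the letters and not evidence of binding.

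PRC2 has a catalytic subunit, Ezh2 or its slower paralogue Ezh1, held by Suz12 and Eed. The differences of these subunits were unlike each other. Suz12 was at 119 TPM with α-KG and 54.0 TPM in the α-KG control, a log2 difference of 1.13, and at 97.5 TPM with 2-HG and 83.2 TPM in the 2-HG control, a difference of 0.23. Both treated libraries lay above both controls. The controls themselves differed by 0.61, with the α-KG control the lowest of the 4 libraries. Against the 2-HG control the α-KG library stood only 0.51 higher, and against the mean of both controls 0.82, so the 2-fold difference holds only against the own control of the pair. Suz12 lies at chr11:79993106-80034123 in GRCm38 and shares 178 exon bases with Gm26563 on the opposite strand, a gene at 3.66 TPM or less.

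Ezh2 was at 148 TPM with α-KG and 112 TPM in the α-KG control, and at 72.4 TPM with 2-HG and 79.2 TPM in the 2-HG control. The α-KG pair thus stood above the 2-HG pair, and the controls differed by -0.49, more than the treated library of either pair differed from its own control, at 0.40 with α-KG and -0.13 with 2-HG. The epiblast sum was likewise higher in both libraries of the α-KG pair, as were Nanog, Sox2, Esrrb, Fgf4 and Tdgf1. Pou5f1 and Klf2 were not, and Pou5f1 was lowest with α-KG, at 28.1 TPM. The part of lineage composition in the levels of Ezh2 was not tested. Eed, which reads the finished mark, was at 119 TPM with α-KG and 115 TPM in the α-KG control, and at 89.6 TPM with 2-HG and 130.2 TPM in the 2-HG control. The 2-HG library was the lowest, at a log2 difference of -0.53 against its control. Ezh1 was at 9.99 TPM with α-KG and 10.7 TPM in the α-KG control, and at 6.19 TPM with 2-HG and 10.5 TPM in the 2-HG control. The α-KG library and both controls were nearly level, and 2-HG differed from the 2-HG control by -0.68.

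Ezh1, Ezh2, Suz12 and Eed together reached 396 TPM with α-KG and 291 TPM in the α-KG control. They reached 266 TPM with 2-HG and 303 TPM in the 2-HG control. The balance of the subunits differed between libraries. Suz12 was at 1.00 times the level of Eed with α-KG and 0.472 times in the α-KG control, and at 1.09 times with 2-HG and 0.639 times in the 2-HG control. Suz12 and Eed were thus at like levels in both treated libraries and Suz12 was the lower in both controls. Against Ezh2, Suz12 was at 0.804 times its level with α-KG and 0.482 times in the α-KG control. That ratio was 1.35 with 2-HG and 1.05 in the 2-HG control, so the 2-HG control lay above the α-KG library. Ezh2 was at 14.8 times the level of Ezh1 with α-KG and 10.5 times in the α-KG control, and at 11.7 times with 2-HG and 7.56 times in the 2-HG control.

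**Figure D3:**
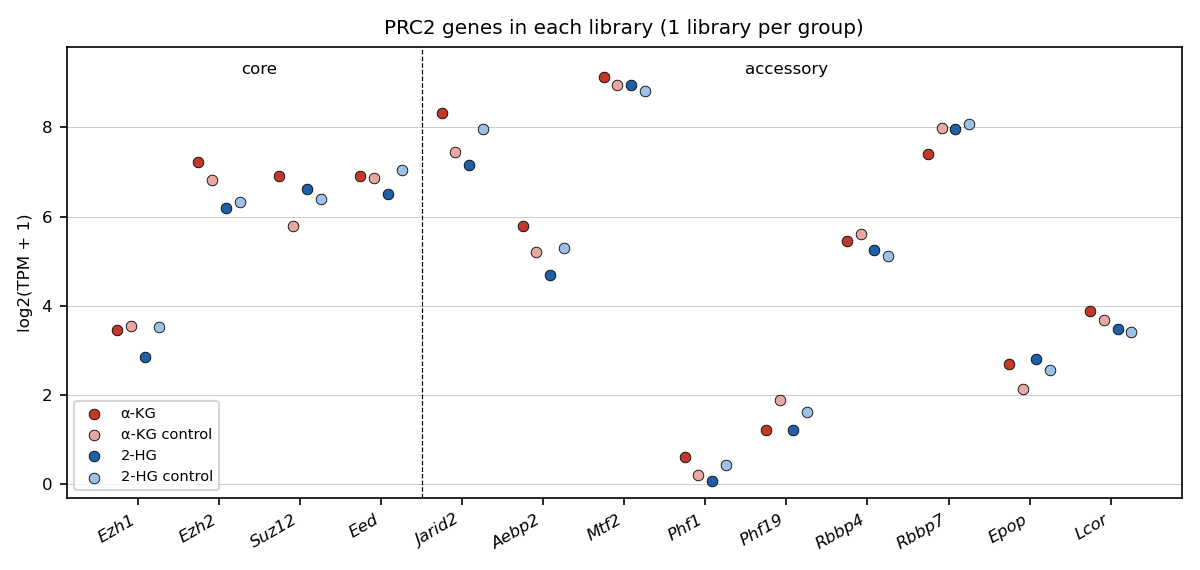
Level of 4 PRC2 genes of the group, marked core, and 9 other PRC2 genes, marked accessory, with 1 point per library. The vertical axis is log2(TPM + 1). Rbbp4 and Rbbp7, histone-binding subunits, are among the genes marked accessory. Suz12 is lowest in the α-KG control at 54.0 TPM, Eed and Ezh1 are lowest with 2-HG at 89.6 and 6.19 TPM, and Ezh2 is higher in both libraries of the α-KG pair than in both of the 2-HG pair. Jarid2 and Aebp2 are highest with α-KG and lowest with 2-HG.

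Jarid2 and Aebp2, accessory subunits that occur in one form of the complex, were above the own control with α-KG and below it with 2-HG without passing the rule. Jarid2 was at 319 TPM with α-KG and 172 TPM in the α-KG control, and at 141 TPM with 2-HG and 249 TPM in the 2-HG control, differences of 0.89 and -0.82. The controls differed by 0.53. Aebp2 was at 54.5 TPM with α-KG and 35.7 TPM in the α-KG control, and at 24.6 TPM with 2-HG and 38.0 TPM in the 2-HG control, differences of 0.60 and -0.60. Mtf2, a subunit of the other form of the complex, was the most abundant accessory gene, at 554 TPM with α-KG and 496 TPM in the α-KG control, and at 496 TPM with 2-HG and 450.2 TPM in the 2-HG control. Rbbp7, a histone-binding subunit, was at 169 TPM with α-KG and 253 TPM in the α-KG control, and at 249 TPM with 2-HG and 270.2 TPM in the 2-HG control, a difference of -0.58 with α-KG. Epop was above its own control with both compounds, by 0.56 with α-KG and 0.25 with 2-HG. Of the 7 genes of the accessory list tested with each compound, Rbbp4 and Rbbp7 included, 5 were above the own control with α-KG and 4 with 2-HG. None of the 7 passed the rule with α-KG, none of 7 with 2-HG and none of 6 between the controls.

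Of PRC1, which ubiquitinates histone H2A and binds the mark of PRC2, none of 12 genes passed with α-KG, 1 of 13 with 2-HG and 1 of 13 between the controls. Both times the gene was Phc2, a scaffold of PRC1, which was at 2.32 TPM with 2-HG and 5.84 TPM in the 2-HG control, a difference of -1.04. It was at 2.43 TPM with α-KG and 2.29 TPM in the α-KG control, and reached 5 TPM in the 2-HG control only, so it entered both comparisons through its highest library.

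The enzymes of H3K9 mark heterochromatin and silent genes, and all 7 were tested. With 2-HG, 6 of the 7 were above the 2-HG control, with a median difference of 0.28 beside -0.12 for all genes, and Suv39h1 was below it. None of the 7 passed the rule, and 5 of 7 were above the α-KG control. With α-KG, 2 of 7 were above the α-KG control, but 6 of 7 were above the 2-HG control, so the direction of the group with α-KG depended on the control chosen. Between the controls, 2 of 7 were higher in the 2-HG control.

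Ehmt2, also called G9a, and its partner Ehmt1 together place mono- and dimethyl marks on this residue. Ehmt2 was at 39.5 TPM with α-KG and 23.8 TPM in the α-KG control, and at 28.9 TPM with 2-HG and 23.7 TPM in the 2-HG control. The controls were nearly level, at a difference of -0.01, and both treated libraries stood above them, by 0.71 with α-KG and 0.28 with 2-HG. Ehmt1 was at 22.3 TPM with α-KG and 24.1 TPM in the α-KG control, and at 25.1 TPM with 2-HG and 17.4 TPM in the 2-HG control. Ehmt2 was therefore at 1.77 times the level of Ehmt1 with α-KG and 0.988 times in the α-KG control, and at 1.15 times with 2-HG and 1.36 times in the 2-HG control.

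Suv39h1 and Suv39h2 trimethylate the residue at the repeats beside centromeres. Suv39h1, at chrX:8061171-8074760, was at 7.91 TPM with α-KG and 8.28 TPM in the α-KG control, and at 15.7 TPM with 2-HG and 24.3 TPM in the 2-HG control. Both libraries of the 2-HG pair stood above both of the α-KG pair, and the controls differed by 1.45, more than 2-HG from its control at -0.60 or α-KG from its control at -0.06. The values of Xist and the Y-linked genes in the same libraries are given above, and the part of sex composition in the levels of this X-linked gene was not tested. The antisense gene Gm14820, which shares 767 exon bases with Suv39h1 on the opposite strand, ran the other way, at 1.62 TPM with α-KG and 5.11 TPM in the α-KG control, and at 0.0823 TPM with 2-HG and 0.128 TPM in the 2-HG control. Without known strandedness the reads of both genes cannot be told apart there. Suv39h2 was at 15.7 TPM with α-KG and 12.2 TPM in the α-KG control, and at 19.1 TPM with 2-HG and 12.7 TPM in the 2-HG control. It was above both controls with each compound, by 0.34 and 0.55 against its own. On the opposite strand it shares 357 exon bases with Dclre1c, a gene between 19.7 and 30.7 TPM. Dclre1c was higher than Suv39h2 in every library, so the level of Suv39h2 is less certain. Suv39h2 was at 1.99 times the level of Suv39h1 with α-KG and 1.48 times in the α-KG control, and at 1.22 times with 2-HG and 0.522 times in the 2-HG control.

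Setdb1, which silences retroelements together with Trim28, was at 13.1 TPM with α-KG and 19.1 TPM in the α-KG control, and at 14.9 TPM with 2-HG and 12.7 TPM in the 2-HG control. The α-KG control was the highest of the libraries, with a log2 difference of -0.51 for α-KG and of -0.55 for the 2-HG control against it. Setdb2 stayed between 7.04 and 9.89 TPM, highest with 2-HG, and Prdm2, also called RIZ, between 19.3 and 26.9 TPM, higher in the α-KG pair. Trim28 itself was at 233 TPM with α-KG and 190.0 TPM in the α-KG control, and at 184 TPM with 2-HG and 227 TPM in the 2-HG control. Among 12 partners of these enzymes, 1 passed the rule with α-KG, none of 11 with 2-HG and none of 12 between the controls. That gene was Zfp644, which helps to recruit Ehmt2 and Ehmt1, at 12.1 TPM with α-KG and 5.01 TPM in the α-KG control, and at 2.90 TPM with 2-HG and 6.28 TPM in the 2-HG control. Its difference of 1.12 with α-KG was not checked against the 2-HG control, and the controls differed by 0.28. Zfp644 shares 143 exon bases on its own strand with Gm28039, a gene at 0.946 TPM or less.

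The H3K4 enzymes mark active promoters and enhancers, and 2 of the 7, Kmt2b and Kmt2c, had enough RNA to be tested. Kmt2c, which works at enhancers and lies at chr5:25271798-25498783, was at 42.9 TPM with α-KG and 48.6 TPM in the α-KG control, and at 70.0 TPM with 2-HG and 34.2 TPM in the 2-HG control. The 2-HG library was the highest and the 2-HG control the lowest. The difference in that pair was 1.01, just past the rule. It was 0.52 against the α-KG control, 0.76 against the mean of both controls and 0.94 with a pseudocount of 5, so the call depended on the control and the pseudocount. Its paralogue Kmt2d stayed between 1.01 and 2.25 TPM in all 4 libraries. Kmt2b, which acts in the oocyte and at promoters of developmental genes, was at 9.11 TPM with α-KG and 7.88 TPM in the α-KG control, and at 7.05 TPM with 2-HG and 9.39 TPM in the 2-HG control.

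Kmt2c was at 4.71 times the level of Kmt2b with α-KG and 6.17 times in the α-KG control, and at 9.92 times with 2-HG and 3.64 times in the 2-HG control. The others were low: Kmt2a, the homologue of trithorax, was between 3.60 and 4.30 TPM, and Setd1a and Setd1b, which act at most active promoters, lay between 2.04 and 4.18 TPM. Setd7, which also methylates other proteins, was at 0.406 TPM with α-KG and listed at 0 in the α-KG control, and at 0.439 TPM with 2-HG and 0.953 TPM in the 2-HG control. Setd1a shares 3523 exon bases with Gm49388 on its own strand, a gene at 0.21 TPM or less.

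The core subunits that these enzymes share were at unequal levels. Dpy30 was between 313 and 339 TPM, Wdr5 between 82.3 and 96.9 TPM and Rbbp5 between 24.2 and 40.8 TPM, while Men1, which joins the complexes of Kmt2a and Kmt2b, was listed at 0 in all 4 libraries. Ash2l was at 194 TPM with α-KG and 249 TPM in the α-KG control, and at 367 TPM with 2-HG and 296 TPM in the 2-HG control. Among the partners of the H3K4 enzymes, none of 10 passed the rule with α-KG, 1 of 11 with 2-HG and 1 of 11 between the controls. Both times the gene was Pagr1a, a subunit of the complexes of Kmt2c and Kmt2d. It was at 1.69 TPM with α-KG and 0.608 TPM in the α-KG control, and at 0.587 TPM with 2-HG and 6.95 TPM in the 2-HG control. It reached 5 TPM in the 2-HG control only and entered both comparisons through that library. Pagr1a shares 1412 exon bases with Gm42742 on its own strand, which was at 4.84 TPM with α-KG and 7.75 TPM in the α-KG control, and at 6.68 TPM with 2-HG and 4.79 TPM in the 2-HG control, so the level of Pagr1a is uncertain.

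The H3K36 enzymes act in transcribed genes and in the regions between them. Setd2, which alone makes most of the trimethyl mark, was at 55.3 TPM with α-KG and 74.0 TPM in the α-KG control, and at 62.2 TPM with 2-HG and 52.6 TPM in the 2-HG control. The highest value was that of the α-KG control. Nsd1, which makes the dimethyl mark, was at 61.4 TPM with α-KG and 41.4 TPM in the α-KG control, and at 42.5 TPM with 2-HG and 36.4 TPM in the 2-HG control. Both treated libraries were above both controls, by 0.56 and 0.22 against their own.

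Nsd2 ran the other way, at 4.94 TPM with α-KG and 7.48 TPM in the α-KG control, and at 7.46 TPM with 2-HG and 11.7 TPM in the 2-HG control. Both treated libraries were below both controls, but 2-HG and the α-KG control were nearly level and their order turned once the libraries were rescaled. Nsd1 was therefore at 12.4 times the level of Nsd2 with α-KG and 5.53 times in the α-KG control, and at 5.69 times with 2-HG and 3.11 times in the 2-HG control. Nsd3 was at 14.6 TPM with α-KG and 7.30 TPM in the α-KG control, and at 6.67 TPM with 2-HG and 8.92 TPM in the 2-HG control. Its difference of 0.91 with α-KG lay just outside the rule. Ash1l, a trithorax-group enzyme of the dimethyl mark, was at 14.7 TPM with α-KG and 10.8 TPM in the α-KG control, and at 10.2 TPM with 2-HG and 14.4 TPM in the 2-HG control. Ash1l shares 352 exon bases on the opposite strand with Dap3, which was far higher, between 100.6 and 160.1 TPM, so its own level is uncertain. Of the partners of the H3K36 and H3K79 enzymes, such as Mllt10 and Psip1, none of the 7 tested passed in any comparison.

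None of the enzymes of H4K20 and H3K79 passed the rule in any comparison. Dot1l, the H3K79 enzyme, which has no SET domain, was at 13.3 TPM with α-KG and 14.2 TPM in the α-KG control, and at 12.7 TPM with 2-HG and 13.7 TPM in the 2-HG control. Its 4 libraries spanned 0.15 on the log2 scale, the narrowest of the 30 genes. Kmt5a, which makes the monomethyl mark, was at 35.5 TPM with α-KG and 47.6 TPM in the α-KG control, and at 41.3 TPM with 2-HG and 41.0 TPM in the 2-HG control. Kmt5b and Kmt5c, which extend that mark, stayed between 20.7 and 32.1 TPM and between 4.09 and 6.17 TPM, each lowest with 2-HG. All 4 genes were below the α-KG control with α-KG and 3 of 4 were below the 2-HG control, while with 2-HG 3 of 4 were below the 2-HG control and all 4 below the α-KG control. Their median difference was -0.13 with α-KG, beside 0.05 for all genes, and -0.20 with 2-HG, beside -0.12, so the direction with 2-HG was near that of all genes. The 4 genes summed to 84.3 TPM with α-KG and 99.7 TPM in the α-KG control, and to 78.8 TPM with 2-HG and 86.4 TPM in the 2-HG control.

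The remaining 8 genes encode SET, SMYD and PRDM proteins with other or less settled substrates. Smyd5, reported to methylate a ribosomal protein and histones, at chr6:85431989-85446435, had the widest span of all 30 genes. It was at 27.7 TPM with α-KG and 18.95 TPM in the α-KG control, and at 43.0 TPM with 2-HG and 10.6 TPM in the 2-HG control. Both treated libraries were above both controls, which themselves differed by -0.78. The difference of 1.92 with 2-HG was 1.14 against the α-KG control and 1.53 against the mean of both controls, and it passed the rule in every setting tried. No other annotated gene shares exon bases with Smyd5.

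Smyd2, which methylates p53 and other proteins, lies at chr1:189880492-189922363 and was at 38.5 TPM with α-KG and 19.8 TPM in the α-KG control, and at 32.6 TPM with 2-HG and 42.6 TPM in the 2-HG control. The α-KG control stood apart below the other 3 libraries. The 2-HG control was 1.07 above it, a difference that was 0.94 with a pseudocount of 5 and 0.98 with rescaled libraries, both under the rule, and α-KG was 0.92 above it. Smyd3 was at 26.2 TPM with α-KG and 45.2 TPM in the α-KG control, and at 39.5 TPM with 2-HG and 42.3 TPM in the 2-HG control. The α-KG library was the low one, at a difference of -0.76, while the small difference of -0.09 with 2-HG became 0.02 once the libraries were rescaled. Smyd4 was at 4.92 TPM with α-KG and 8.55 TPM in the α-KG control, and at 7.36 TPM with 2-HG and 6.90 TPM in the 2-HG control.

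Setd3, known for methylating a histidine of actin, was the highest of these 8 genes and one of the steadiest, between 53.5 and 62.4 TPM. Near-identical copies of its transcript, Gm14026 at 97.2% and Gm7114 at 96.0% identity, were at 0.37 TPM or less. Setd5, needed for normal mouse development, was at 61.8 TPM with α-KG and 45.1 TPM in the α-KG control, and at 59.2 TPM with 2-HG and 55.2 TPM in the 2-HG control. Kmt2e, a relative of the H3K4 enzymes, was at 16.4 TPM with α-KG and 14.7 TPM in the α-KG control, and at 10.7 TPM with 2-HG and 17.3 TPM in the 2-HG control, lowest with 2-HG at a difference of -0.65. It shares 972 exon bases on the opposite strand with Srpk2, a gene between 10.4 and 14.3 TPM. Prdm4 stayed between 8.40 and 11.5 TPM.

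**Figure D4:**
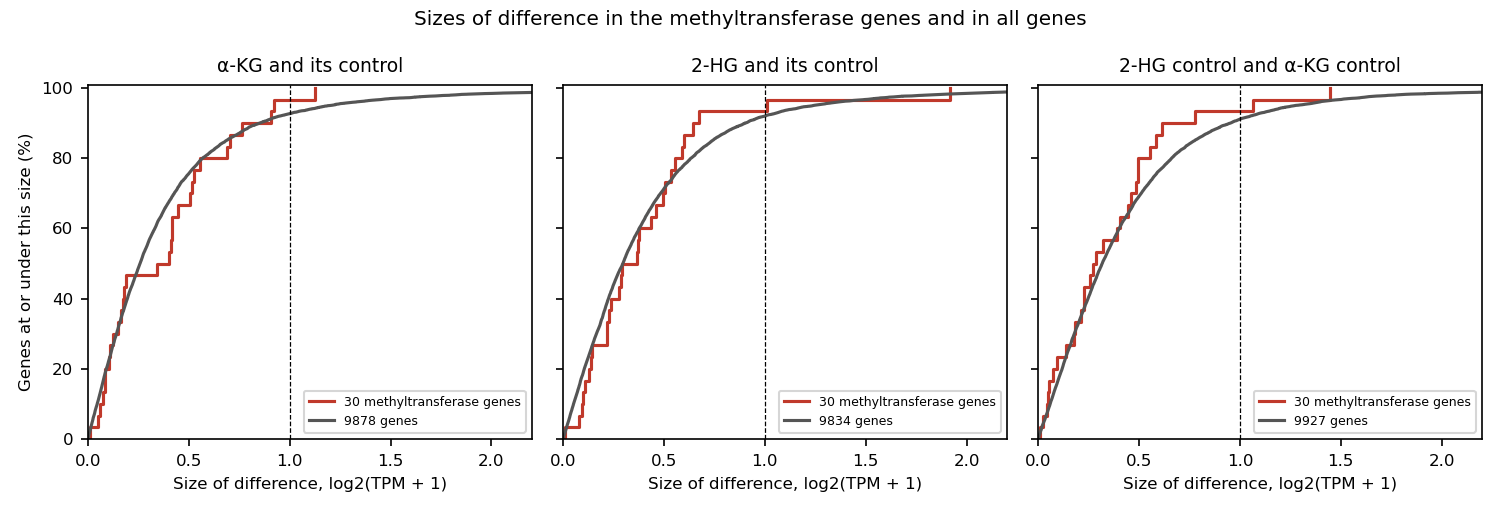
Share of genes, in percent, whose log2(TPM + 1) difference is at or under the size on the horizontal axis, for the 30 methyltransferase genes and for all genes tested, with 1 panel per comparison and a dashed line at the size rule. The medians for the methyltransferase genes and all genes were furthest apart for α-KG, at 0.37 and 0.26. They were 0.33 and 0.30 for 2-HG and 0.28 and 0.32 between the controls.

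Levels outside the range of both controls were counted over the 4 libraries. Both treated libraries were above both controls in 7 of the 30 genes (23.3%), beside 11.5% of the 10420 genes that reached 5 TPM in a library. These were Suz12, Ehmt2, Suv39h2, Nsd1, Setd3, Setd5 and Smyd5. Both were below both controls in 5 genes (16.7%), beside 16.0% of all genes, namely Ezh1, Nsd2, Kmt5c, Dot1l and Smyd3. With the libraries rescaled by the median of ratios, a check added after the data were seen, the same 7 genes were above, beside 13.8% of all genes, and 3 were below, Ezh1, Kmt5c and Dot1l, beside 14.2%. The 2-HG library was above both controls in 10 genes (33.3%) beside 24.8% of all, and below them in 12 (40.0%) beside 40.5%. The α-KG library was above them in 10 (33.3%) beside 32.2%, and below them in 8 (26.7%) beside 29.5%. With 1 library a group these shares carry no test. The span of the 4 libraries had a median of 0.61 on the log2 scale for the 30 genes, beside 0.63 for all 10420.

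S-adenosylmethionine, the methyl donor of all these enzymes, is made by Mat2a in most tissues outside the liver. Mat2a was at 22.7 TPM with α-KG and 14.3 TPM in the α-KG control, and at 18.3 TPM with 2-HG and 43.4 TPM in the 2-HG control. The 2-HG library differed from the 2-HG control by -1.21 and the controls differed by 1.54, so the 2-HG control stood above all other libraries. Of the 8 genes tested for the supply of the donor, Mat2a alone passed the rule with 2-HG and between the controls, and none of 8 passed with α-KG. Of SET and PRDM genes outside the 35, 1 of 5 passed with 2-HG, none of 3 with α-KG and none of 5 between the controls. The gene was Setd6, which methylates the NF-κB subunit RelA and was at 8.37 TPM with α-KG and 4.17 TPM in the α-KG control, and at 27.5 TPM with 2-HG and 7.997 TPM in the 2-HG control. The 2-HG library stood above the other 3.

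Other annotated genes share exon bases with 16 of the 35 genes, on the same strand for 2 of them, Setd1a and Ehmt1, where Ehmt1 shares 21 bases with Gm37139. On the opposite strand Kmt2c shares 274 bases with Gm42585 and Smyd2 shares 814 with Gm37422. Setdb1 shares 75 there with Cers2, at 92.2 TPM or more, and Nsd2 shares 60 with Nelfa, at 20.7 TPM or more. Both neighbours were higher, so the levels of Setdb1 and Nsd2 are less certain. Kmt5b shares 927 with Gm16066, listed at 0 in both controls and at 1.78 TPM with α-KG and 3.94 TPM with 2-HG. The deposited worksheet of selected genes lists 31 names, of which 3 are among the 35: Ehmt2, Setdb1 and Suv39h1.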

How the data were processed

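RNA of 4 blastocyst libraries, 1 per group, was analysed from gene-level TPM, a length-corrected abundance, that the authors computed and deposited. Trimmomatic, HISAT2, Picard, StringTie and DESeq2, with the builds mm10 and GRCm38.p6, are named per the submitters' processing notes, without versions, roles or order. No read counts were used, so depth is unknown and no counting interval is given. A deposited worksheet served only for its gene names, and its 10 value columns were not used.

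Genes were matched by ID to GENCODE M21 (GRCm38), 53620 of 53715 in all, which gave the 1-based coordinates and exon overlaps. Differences of log2(TPM + 1) were taken within each pair and between the controls, for genes with at least 5 TPM in 1 of the 2 libraries, and a difference of 1.00 or more in size passed the rule. With 1 library per group no test was run. The calculation was run on simulated data with planted changes larger than the differences reported here. How it treats changes near the rule was not tested. The 35 genes and the partner lists were chosen with earlier results of these data known. Members were named in full where they passed the rule or led their role by mean TPM, and other members were given as values or ranges. Of partner genes, up to 3 past the rule per list were named. The further partner and marker genes given with values, such as Jarid2, were chosen after their values were seen.

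Alternatives were pseudocounts of 0.1 and 5, no filter or at least 10 TPM, median-of-ratios scaling, sums with genes on the same strand, the other control and the mean of both controls. Near-identical copies were sought with BLAST 2.17.0 at 95% identity over 500 bases. Python 3.11.15, pandas 2.3.3, numpy 2.4.6 and matplotlib 3.10.9 were used.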

Additional observations from a re-analysis of the deposited data

How the results depend on the processing

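No paired analysis was possible because each group has 1 library and the labels give no replicate numbers. With α-KG, the count of genes past the size rule, 1 as reported, was 3 against the 2-HG control (Smyd5 higher, Suv39h1 and Nsd2 lower) and 0 against the mean of both controls. With 2-HG, the count of 2 was 1, Smyd5, with a pseudocount of 5, against the α-KG control and against the mean of both controls. Between the controls, the count of 2 was 1, Suv39h1, with a pseudocount of 5 and with median-of-ratios scaling. With a rule of 1.5-fold, chosen after seeing the data, the counts were 6 with α-KG (19.3% of all genes), 6 with 2-HG (22.8%) and 4 between the controls (24.5%). The cause was not tested, apart from the change of rule itself. A pseudocount of 0.1, no filter, a filter of 10 TPM and same-strand sums kept the 3 counts. No difference past the 2-fold rule changed sign. Of those past the 1.5-fold rule alone, Suv39h1 with 2-HG was at 0.85 against the α-KG control and 0.12 against the mean of both controls, and Smyd2 with α-KG at -0.14 against the 2-HG control. Scaling moved the median of all genes with 2-HG to -0.01, against -0.12 as deposited, and the libraries' factors lay between 0.965 and 1.04. Depth, embryo number and replicate spread are unknown, so low genes such as Setd7 cannot be ranked between libraries.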
